A study of Mus musculus with 13 samples.

Results

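The genes described here carry glucose into the cell and turn it into lactate, and several of them come in isoforms that red cells and macrophages use differently. They are 10 of the 15345 genes tested in either bulk comparison, taken from a list of names and not by a measured value, and all 10 were found in the count files, in the Salmon files and in the single-cell matrix. Slc2a1, Slc2a3 and Slc2a4 code for glucose transporters, Hk1 and Hk2 for hexokinases, Pfkl for the liver-type subunit of phosphofructokinase, Bpgm for bisphosphoglycerate mutase, Pklr and Pkm for pyruvate kinases, and Ldha for the A subunit of lactate dehydrogenase. As background, mature mammalian red cells have no mitochondria and live on glycolysis, from which Bpgm branches off to make bisphosphoglycerate, the compound that lowers the oxygen affinity of hemoglobin. Pklr has separate first exons for a red cell and a liver form, Pkm has alternative exons for an M1 and an M2 form, and Hk1 is the hexokinase known from red cells, while macrophages are known for Pkm and Hk2.

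The study followed EKLF, the product of Klf1, in F4/80+ macrophages that form erythroblastic islands in mouse fetal liver at E13.5. Bulk RNA came from sorted F4/80+ cells of EKLF+/+ and EKLF-/- embryos, whose allele is Klf1tm1Sho (strain given as C57BL/6 in the sample labels and as 129S4/SvJae in the study's resource table), and from F4/80+ cells of a pEKLF/GFP mouse line, in which the EKLF promoter drives GFP, split into EKLF/GFP+ and EKLF/GFP- cells. Each of these 4 groups had 3 libraries, described as biological triplicates. The single-cell library was made from F4/80+ cells of wild-type (EKLF+/+) littermate embryos, enriched on magnetic beads after a peptide inhibitor of the adhesion between red cell precursors and macrophages. RNA of the EKLF/GFP+ libraries was made with an Agilent Nanoprep kit and that of the other libraries with Trizol, so kit and group cannot be told apart in that comparison. The stated RNA integrity was lower for EKLF/GFP+ than for the EKLF+/+ and EKLF-/- samples and is not given for EKLF/GFP-, which bears on transcript and fragment shares. Reads on genes came to 10695514, 15362161 and 12503257 in EKLF+/+ replicates 1 to 3 and to 13879718, 13382180 and 12592603 in EKLF-/-. Estimated counts on genes came to 26910637, 28736342 and 22723197 in EKLF/GFP- replicates 1 to 3 and to 27556645, 25379330 and 25475903 in EKLF/GFP+.

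Klf1, the targeted gene, had 4704, 3954 and 4877 normalized counts (counts scaled to a common library size) in the 3 EKLF+/+ libraries and 762, 834 and 741 in the 3 EKLF-/- libraries. The groups are far apart, in the direction of the labels, at a log2 fold change of -2.53 with a standard error of 0.12 (5.79-fold, adjusted p = 7.22e-06). Which exons the allele lacks is not given in the labels, so the reads left in EKLF-/- were not placed on the gene. In the GFP set, Klf1 had 900, 1191 and 745 normalized counts in EKLF/GFP- and 2619, 2349 and 2272 in EKLF/GFP+, which fits the sort on GFP (log2 fold change 1.35 with a standard error of 0.16, adjusted p = 0.000321). Klf1 reads were thus present in the GFP- gate as well, at a lower level.

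In EKLF-/- against EKLF+/+, the transporters Slc2a1 and Slc2a4, the hexokinase Hk1 and the red cell pyruvate kinase gene Pklr fell. Pfkl, Bpgm, Pkm and Ldha rose, so the loss was not of the pathway as a whole. All 10 genes passed the filter on low counts, Slc2a4 through EKLF+/+ alone, so no count or median over the 10 is given. Among all 12753 genes tested, 20.3% passed the test in either direction (10.6% lower, 9.72% higher), with a median of 0.02. The counts behind these shares, 1356 lower and 1239 higher, ranged from 575 to 1889 and from 346 to 1730 with a library left out. Since RNA of whole sorted populations was measured, fewer cells of a type and less RNA per cell cannot be told apart. Red cell markers moved with these genes: of 13 listed, 11 were found and 9 tested, 5 fell and none rose (median log2 fold change -1.01), Klf1, which the design itself lowers, being 1 of the 5. Their summed normalized counts were 196054, 189842 and 245449 in EKLF+/+ and 76419, 50094 and 67404 in EKLF-/-. Much of this was Hbb-bs, from 69843, 61984 and 99376 to 1592, 2760 and 1603, and Slc4a1, from 64252, 66563 and 74582 to 30119, 17937 and 25021. Hba-a1 was at 0 in all 6 libraries and Hba-a2 at most at 1.08, so the sums hold almost no counts of either. In the EKLF/GFP libraries, which were counted another way, Hba-a1 had 40104 to 81469 normalized counts. Whether the 0 of Hba-a1 comes from the counting was not tested. Of 10 macrophage markers, 3 fell (Mrc1, Cd5l and Timd4; median -0.27), and the sums overlapped, at 3857, 4626 and 4606 against 4039, 5829 and 3869, with Csf1r the most abundant. Markers of neutrophils rose for 4 of 8 genes and fell for 1 (median 0.74), with sums of 21249, 33353 and 29017 against 36376, 65991 and 46927 and S100a9 the most abundant. Granulocyte-monocyte progenitor markers rose for 4 of 5 (median 1.43), with sums of 56609, 64088 and 46670 against 67897, 138819 and 79986 and Mpo the most abundant. The part of these cell types in the changes below was not tested.

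Slc2a1, the transporter known from red cells, had 4609, 5206 and 5140 normalized counts in EKLF+/+ and 1339, 1860 and 1753 in EKLF-/-. Every EKLF-/- library lay below every EKLF+/+ library, by a log2 fold change of -1.59 with a standard error of 0.14 (3.02-fold, adjusted p = 0.000267). Slc2a4, whose product is known as the insulin-regulated transporter of muscle and fat, had 649, 589 and 636 normalized counts in EKLF+/+ and 2.71, 2.98 and 2.00 in EKLF-/-. The counts as deposited were 541, 681 and 591 reads against 3, 3 and 2, so almost no read was left without EKLF. In sum, 1813 reads of 38560932 stood against 8 of 39854501, a ratio of 234 with an exact 95% interval from counting error of 119 to 543. Slc2a4 passed the filter on low counts through EKLF+/+ alone, so its call (adjusted p = 2.27e-07) adds nothing to these counts. Slc2a3, a transporter known from neurons and white cells, had 1089, 1358 and 1176 normalized counts in EKLF+/+ and 1302, 1167 and 1266 in EKLF-/-. Its groups overlapped, and it was not called (log2 fold change 0.04 with a standard error of 0.11, adjusted p = 0.793). Of the 3 transporters, Slc2a1 and Slc2a4 thus had lower levels without EKLF while Slc2a3 kept to the same range.

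The hexokinases trap glucose in the cell as glucose phosphate. Hk1 had 6370, 6445 and 6114 normalized counts in EKLF+/+ and 4728, 4264 and 4426 in EKLF-/-. The groups did not overlap, and the difference was the smallest of the 4 decreases, at a log2 fold change of -0.50 with a standard error of 0.10 (1.41-fold, adjusted p = 0.0136). Hk2 had 936, 1302 and 984 normalized counts in EKLF+/+ and 904, 975 and 1029 in EKLF-/-, so 2 of the EKLF+/+ libraries lay within the EKLF-/- range. It was not called, at a log2 fold change of -0.15 with a standard error of 0.14 (adjusted p = 0.448). Pfkl, whose product commits the sugar to glycolysis, had 4241, 4630 and 4227 normalized counts in EKLF+/+ and 5250, 6610 and 6495 in EKLF-/-. All EKLF-/- libraries were higher, by a log2 fold change of 0.49 with a standard error of 0.12 (1.40-fold, adjusted p = 0.029). The calls of Hk1 and Pfkl depended on single libraries. Hk1 was not called without EKLF+/+ replicate 1 (log2 fold change -0.50, adjusted p = 0.069), EKLF+/+ replicate 2 (-0.50, 0.0518) or EKLF-/- replicate 3 (-0.49, 0.0691), and Pfkl was not called without EKLF+/+ replicate 1 (0.46, 0.117), replicate 2 (0.51, 0.0805) or replicate 3 (0.44, 0.105) or without EKLF-/- replicate 3 (0.44, 0.106), nor with the replicate number as a block (0.48, 0.053).

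Bpgm, on the branch that makes bisphosphoglycerate, moved against the other genes known for high levels in red cells. It had 1423, 2122 and 2092 normalized counts in EKLF+/+ and 4094, 4080 and 4028 in EKLF-/-. The EKLF-/- libraries were alike and all above the EKLF+/+ ones, by a log2 fold change of 1.11 with a standard error of 0.16 (2.16-fold, adjusted p = 0.00267). Minpp1, whose product can remove a phosphate from bisphosphoglycerate, was also higher, with 2386, 2053 and 2285 normalized counts in EKLF+/+ and 4306, 4284 and 4556 in EKLF-/- (log2 fold change 0.97, adjusted p = 0.000701).

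The pyruvate kinase genes moved apart. Pklr had 14130, 13820 and 15100 normalized counts in EKLF+/+ and 1183, 1037 and 1041 in EKLF-/-. Both groups were tight, and the decrease was the largest after that of Slc2a4, at a log2 fold change of -3.72 with a standard error of 0.12 (13.2-fold, adjusted p = 1.2e-06). Pkm had 10390, 13870 and 11150 normalized counts in EKLF+/+ and 17020, 29470 and 22130 in EKLF-/-. EKLF-/- replicate 2 was the highest and no library overlapped the other group (log2 fold change 0.95 with a standard error of 0.21, 1.94-fold, adjusted p = 0.0172). Ldha, whose product turns pyruvate into lactate, had 13660, 16450 and 16080 normalized counts in EKLF+/+ and 21720, 32540 and 27040 in EKLF-/-. Again EKLF-/- replicate 2 was the highest, the library in which the marker sums of neutrophils, monocytes, macrophages, lymphoid cells and granulocyte-monocyte progenitors were also highest and those of red cells and early progenitors lowest (log2 fold change 0.82 with a standard error of 0.17, 1.76-fold, adjusted p = 0.0132). Pkm was not called without EKLF+/+ replicate 1 (log2 fold change 0.86, adjusted p = 0.0765), EKLF+/+ replicate 3 (0.89, 0.077) or EKLF-/- replicate 3 (0.98, 0.0519), and Ldha was not called without EKLF+/+ replicate 1 (0.73, 0.0682), EKLF+/+ replicate 3 (0.82, 0.0546) or EKLF-/- replicate 3 (0.82, 0.0501).

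Per length, the order of the levels changed between the genotypes. In RPKM (reads scaled to the length of the gene and the size of the library, mean and SD of 3 libraries), EKLF+/+ cells had Ldha at 352 ± 27.1 and Pklr at 336 ± 14, which did not differ beyond their spread, then Pkm at 179 ± 26.1 and Slc2a1 at 108 ± 5.13. Below them lay Hk1 at 56.1 ± 2.59 RPKM, Pfkl at 49.6 ± 2.60 and Bpgm at 39.6 ± 7.53. The place of Hk1 below Slc2a1 rests on merged exons of 8532 bases, against 3506 for Slc2a1, while Hk1-205 has 2916 and Slc2a1-201 3260. Hk2 at 13.6 ± 2.42 RPKM, Slc2a4 at 13.6 ± 0.90 and Slc2a3 at 12.6 ± 1.29 could not be ordered. By this measure EKLF+/+ cells held about as much Pklr as Ldha message per length, and more Pklr than Pkm. The measure uses merged exons, of 3310 bases for Ldha, 3236 for Pklr and 5001 for Pkm. Full-length transcripts are shorter, at 1588 bases for Ldha-202, 2787 for Pklr-201, and 2432 and 2041 for Pkm-201 and Pkm-202. Levels per transcript length were not computed for these libraries, and the order may differ there. In EKLF-/- cells Ldha led at 638 ± 108 RPKM, followed by Pkm at 356 ± 86.1, Bpgm at 88.6 ± 2.78 and Pfkl at 71.5 ± 7.67. Hk1 at 41.0 ± 3.35 RPKM and Slc2a1 at 36.7 ± 5.37 overlapped, Pklr stood at 26.3 ± 2.64, and Slc2a3 at 13.4 ± 1.17 and Hk2 at 12.7 ± 0.872 overlapped. Slc2a4 was last, at 0.0574 ± 0.0102 RPKM. In RPKM, Pklr thus went from the level of Ldha to a level below Slc2a1 and Hk1, and Bpgm from below Pfkl to above it.

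In EKLF/GFP+ against EKLF/GFP- cells, 7 of the 10 genes rose, among them all 3 transporters, Hk1, Bpgm and Pklr, while Hk2 and Pkm fell. Ldha alone was not called. The median log2 fold change of the 10 genes was 0.67; among all 14259 genes tested, 44.7% passed the test (25.8% lower, 18.9% higher), with a median of -0.01. Of these, 2696 genes were higher, and limma called 1515 (pseudocount 1) and 1682 (pseudocount 8) from the deposited normalized counts. Red cell markers moved here too: of 13 listed, the 12 found all rose, among them Klf1, whose promoter defines the sort (median log2 fold change 1.32), with summed normalized counts of 205492, 258578 and 193079 in EKLF/GFP- and 369333, 471282 and 434189 in EKLF/GFP+, where Hbb-bs led; in EKLF/GFP- Hba-a1 and Hba-a2 lay above it. Macrophage markers fell for 1 of 10, Csf1r (median 0.39), and their sums overlapped at 10343, 8588 and 12860 against 4925, 10615 and 13837. Neutrophil markers fell for 8 of 8 genes (median -3.27), with sums of 37530, 39864 and 53481 against 3166, 6395 and 8081. Monocyte markers fell for 6 of 6 (median -3.35), from 26013, 22952 and 25637 to 2880, 3760 and 3301. Granulocyte-monocyte progenitor markers fell for 5 of 5 (median -4.30), from 80495, 87254 and 83935 to 9887, 11407 and 12907, led by Mpo. Their part in the results on the 10 genes was not tested.

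Among the transporters, Slc2a1 had 2528, 2309 and 2149 normalized counts in EKLF/GFP- and 4783, 5004 and 5171 in EKLF/GFP+. The GFP+ libraries were all higher, by a log2 fold change of 1.10 with a standard error of 0.08 (2.14-fold, adjusted p = 3.34e-05). Slc2a4 had 133, 120 and 96.1 normalized counts in EKLF/GFP- and 384, 448 and 423 in EKLF/GFP+. All GFP+ libraries were higher, and the increase was the largest of the 3, at a log2 fold change of 1.84 with a standard error of 0.15 (3.58-fold, adjusted p = 4.98e-05). Slc2a3 had 603, 806 and 641.5 normalized counts in EKLF/GFP- and 952, 986 and 1038 in EKLF/GFP+. These groups did not overlap either, and the difference was smaller (log2 fold change 0.54 with a standard error of 0.12, 1.45-fold, adjusted p = 0.00695).

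Hk1 and Hk2 moved in opposite directions with GFP. Hk1 had 5708, 6734 and 5888 normalized counts in EKLF/GFP- and 10680, 10430 and 10770 in EKLF/GFP+, so that GFP+ libraries were all higher (log2 fold change 0.80 with a standard error of 0.08, 1.74-fold, adjusted p = 0.000162). Hk2 had 2432, 2189 and 2638 normalized counts in EKLF/GFP- and 957, 990 and 1070 in EKLF/GFP+. Every GFP+ library was lower, by a log2 fold change of -1.27 with a standard error of 0.09 (2.41-fold, adjusted p = 3.38e-05). Pfkl had 3145, 3564 and 3620 normalized counts in EKLF/GFP- and 4305, 4491 and 4369 in EKLF/GFP+. It was higher in every GFP+ library, by a small step (log2 fold change 0.35 with a standard error of 0.08, 1.27-fold, adjusted p = 0.00634). On the authors' normalized counts, limma did not call Pfkl (log2 fold change 0.37, adjusted p = 0.164 with a pseudocount of 1, and 0.36, adjusted p = 0.142 with a pseudocount of 8).

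Bpgm had 728, 626 and 710 normalized counts in EKLF/GFP- and 2140, 2210 and 3630 in EKLF/GFP+. EKLF/GFP+ replicate 3 stood above the rest of its group, and every GFP+ library was higher, by a log2 fold change of 1.95 with a standard error of 0.21 (3.87-fold, adjusted p = 0.000167). Pklr had 3560, 4461 and 3125 normalized counts in EKLF/GFP- and 9647, 10310 and 10060 in EKLF/GFP+, with every GFP+ library higher (log2 fold change 1.43 with a standard error of 0.13, 2.69-fold, adjusted p = 7.7e-05). Pkm had 13680, 13850 and 15760 normalized counts in EKLF/GFP- and 6365, 6817 and 7319 in EKLF/GFP+. All GFP+ libraries were lower, by a log2 fold change of -1.08 with a standard error of 0.09 (2.11-fold, adjusted p = 5.91e-05). Ldha had 14940, 16610 and 17960 normalized counts in EKLF/GFP- and 13510, 15810 and 14400 in EKLF/GFP+. The groups overlapped, with a log2 fold change of -0.18 and a standard error of 0.10 (adjusted p = 0.184).

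In TPM (counts scaled to transcript length and library size, summed over the transcripts of a gene), EKLF/GFP+ cells had Ldha at 515 ± 29.9 and Pklr at 471 ± 18.6, which overlapped, and Pkm at 170 ± 14.0. Hk1 at 99.5 ± 4.12 TPM, Slc2a1 at 91.5 ± 14.5 and Bpgm at 84.9 ± 30.8 overlapped from neighbour to neighbour. Pfkl at 41.5 ± 3.00 TPM, Slc2a3 at 32.8 ± 4.33, Hk2 at 7.33 ± 0.85 and Slc2a4 at 5.55 ± 0.186 followed in that order without overlap. EKLF/GFP- cells had Ldha at 628 ± 107 TPM, then Pkm at 360 ± 48.6, Pklr at 195 ± 14.0, Hk1 at 60.8 ± 2.59, Slc2a1 at 42.1 ± 1.57 and Pfkl at 32.9 ± 1.73. Bpgm at 24.3 ± 3.27 TPM overlapped with Slc2a3 at 21.6 ± 2.88, Slc2a3 with Hk2 at 18.2 ± 2.07, and Slc2a4 was last at 1.45 ± 0.252. Pklr thus stood above Pkm in GFP+ cells and below it in GFP- cells. In RPKM the same held for EKLF+/+ and EKLF-/- cells, where the order in EKLF+/+ rests on merged exon lengths. These sums rest in part on short annotated fragments: Bpgm-205, with 596 bases, took 81.1% of Bpgm in EKLF/GFP- and 78.4% in EKLF/GFP+. The order of full-length transcripts is not the same, since in EKLF/GFP+ Bpgm-201 had 14.7, 13.7 and 23.8 TPM against 27.2, 23.8 and 26.5 for Pfkl-201, and Pklr-201 had 68.7, 65.3 and 72.5 against 119, 111 and 115 for Ldha-202. Slc2a3-201 had 0.819, 0.735 and 0.961 TPM in EKLF/GFP+, against 5.61, 5.18 and 7.00 for Hk2-204. In EKLF/GFP- it had 0.498, 0.548 and 0.863, against 14.9, 12.8 and 16.8 for Hk2-204. The place of Slc2a3 above Hk2 thus rests on other transcripts. Slc2a3-203, Slc2a3-202 and Slc2a3-208, of 1321, 601 and 315 bases, took 37.3%, 28.2% and 27.1% of Slc2a3 in EKLF/GFP+. RPKM and TPM levels come from different counting and were not compared with each other.

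**Figure D1:**
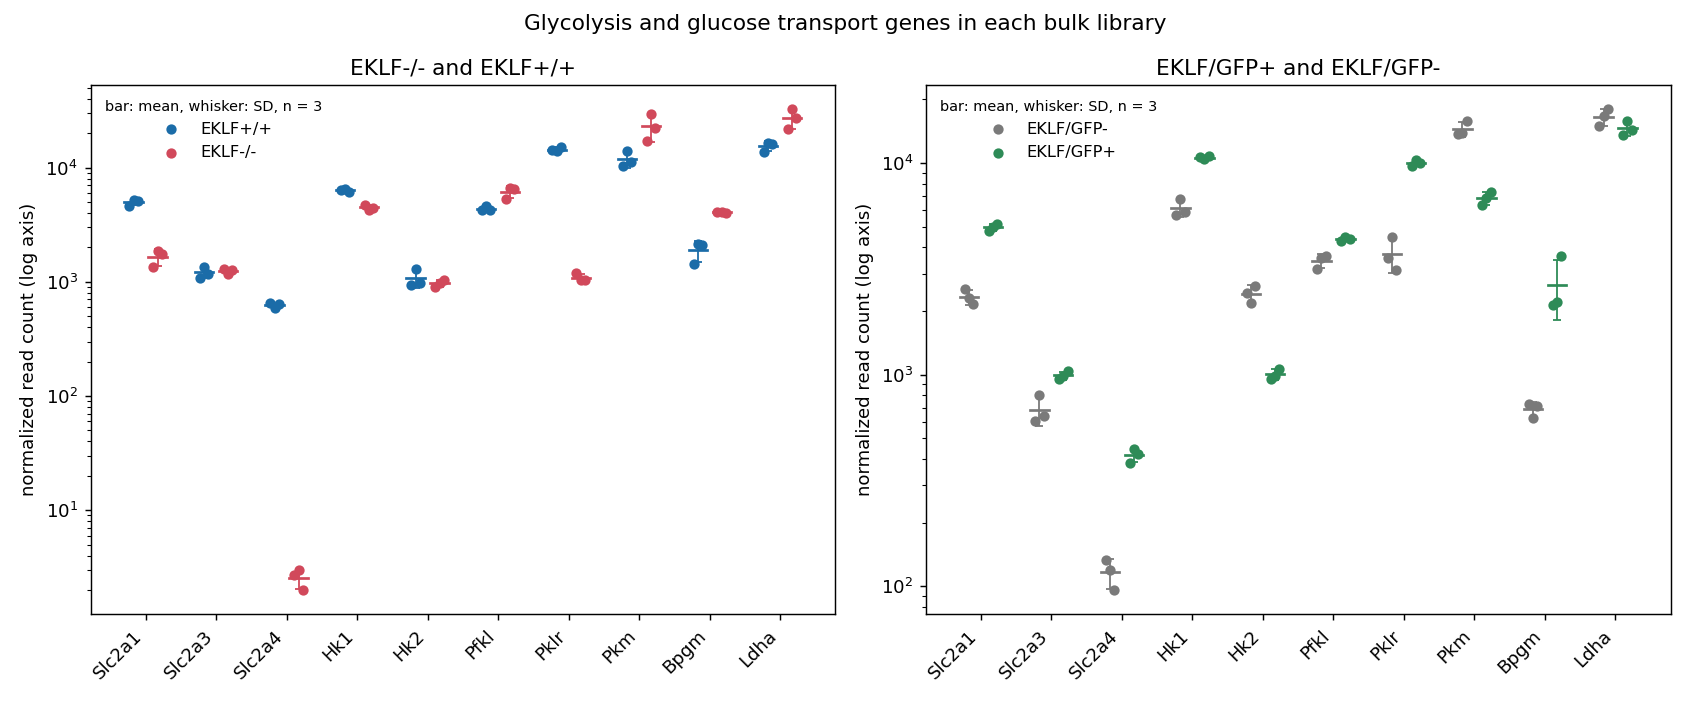
Normalized read counts of the 10 genes in each bulk library, on a log axis, for EKLF+/+ and EKLF-/- (left) and EKLF/GFP- and EKLF/GFP+ (right); bars give the mean and whiskers the SD of 3 libraries.

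The 2 comparisons share no library, and their values can stand side by side. Slc2a1 (log2 fold changes -1.59 without EKLF and 1.10 with GFP), Hk1 (-0.50 and 0.80) and Pklr (-3.72 and 1.43) were lower without EKLF and higher in the cells with an active EKLF promoter. So was Slc2a4, at 1.84 with GFP. Without EKLF it is given by its reads alone, 1813 against 8, a ratio with an interval from counting error of 119 to 543. Pkm went the other way, at 0.95 and -1.08. Bpgm (1.11 and 1.95) and Pfkl (0.49 and 0.35) were higher in both EKLF-/- and EKLF/GFP+ cells. Hk2 (-0.15, not called, and -1.27), Slc2a3 (0.04, not called, and 0.54) and Ldha (0.82 and -0.18, not called) passed the test in 1 comparison each, and the difference between comparisons was not tested.

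The ratio of paired isozymes within a library sets isoforms against each other in the same RNA, and it can move with the mix of cells as well as with the isoform a cell uses. The log2 ratio of Pklr to Pkm normalized counts was 0.44, -0.01 and 0.44 in EKLF+/+ and -3.85, -4.83 and -4.41 in EKLF-/-. The ratio, which is not corrected for gene length, was lower in every EKLF-/- library, by -4.65 on the log2 scale (25.2-fold). In EKLF/GFP- the ratio was -1.94, -1.63 and -2.33 and in EKLF/GFP+ 0.60, 0.60 and 0.46, a difference of 2.52 (5.74-fold). For Hk1 to Hk2, the log2 ratio was 2.77, 2.31 and 2.63 in EKLF+/+ and 2.39, 2.13 and 2.10 in EKLF-/-, with overlap (difference -0.36, exact permutation p = 0.2). The same ratio was 1.23, 1.62 and 1.16 in EKLF/GFP- and 3.48, 3.40 and 3.33 in EKLF/GFP+, without overlap, a difference of 2.07 (4.19-fold). Between Slc2a1 and Slc2a3 the log2 ratio was 2.08, 1.94 and 2.13 in EKLF+/+ and 0.04, 0.67 and 0.47 in EKLF-/- (difference -1.66, 3.15-fold), and it was 0.55 higher in EKLF/GFP+ than in EKLF/GFP-.

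Slc2a4 fell relative to Slc2a1 as well, from a mean log2 ratio of -2.99 ± 0.16 in EKLF+/+ to -9.07 ± 0.37 in EKLF-/- (difference -6.08; -4.78 with a pseudocount of 5.0 in place of 0.5), and was 0.75 higher with GFP. Pfkl to Pfkp, the platelet-type subunit, differed by -0.17 in the EKLF-/- comparison and by 1.87 with GFP, and Pfkm, the muscle-type subunit, to Pfkp by 0.40 and by 2.66. Ldha to Ldhb went from 7.00 ± 0.20 to 7.65 ± 0.20 without EKLF and from 6.32 ± 0.34 to 8.54 ± 0.22 with GFP, so Ldha was in wide excess everywhere. Bpgm to Pgk1, which stand at the fork between the bisphosphoglycerate branch and the main path, overlapped in EKLF+/+ (-0.97, -0.84 and -0.72) and EKLF-/- (-0.29, -1.08 and -0.81; difference 0.12, exact permutation p = 0.8). With GFP this ratio rose from -2.33, -2.80 and -3.35 to -0.18, -1.18 and -0.19 without overlap, a difference of 2.31 (4.95-fold). Of the stretches of 100 bases in the Pgk1 transcripts, 51.7% also occur in other genes, mostly Pgk1-rs7, which limits its estimated counts. For 3 libraries against 3 the smallest exact permutation p is 0.1, which all ratios without overlap reached, at 0.114 after adjustment over the 16 ratios, so none passed 0.05.

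**Figure D2:**
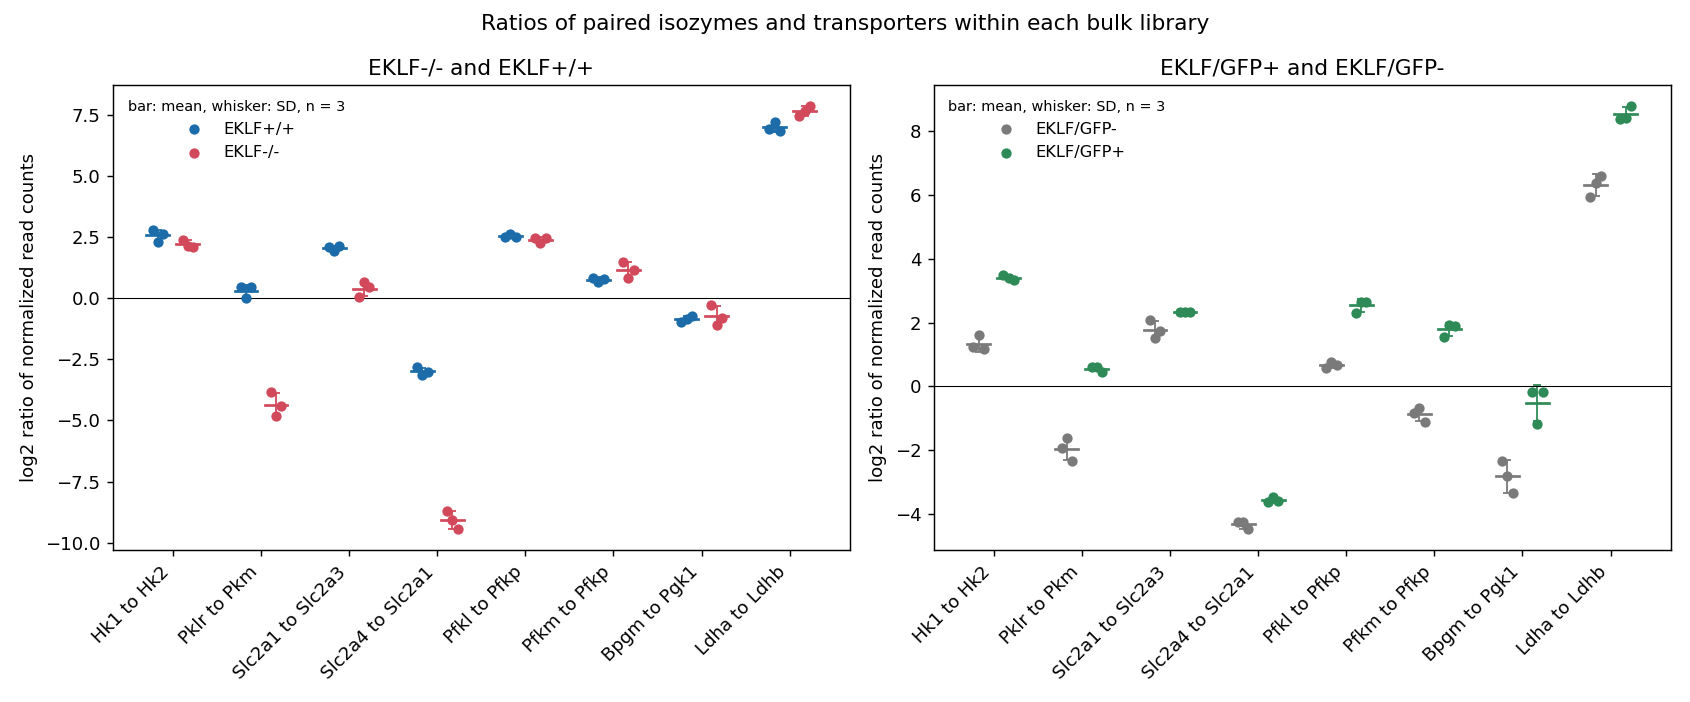
Log2 ratios of the normalized read counts of paired isozymes and transporters in each bulk library; bars give the mean and whiskers the SD of 3 libraries.

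The rest of the pathway, from lists of names, gives these results their surroundings. Of 20 other glycolytic enzymes, 17 were tested in EKLF-/- against EKLF+/+, and 9 rose, none fell (median log2 fold change 0.66). Aldoa, which splits the sugar, had 7278, 9746 and 7257 normalized counts in EKLF+/+ and 16460, 28530 and 23120 in EKLF-/- (log2 fold change 1.49, adjusted p = 0.003), and Pfkm had 1345, 1170 and 1262 against 2672, 2503 and 2602 (1.04, adjusted p = 0.000357). Pgk1 (1.04, adjusted p = 0.0116), Gpi1 (0.86, 0.0172), Hk3 (0.70, 0.0106) and Pfkp (0.66, 0.0145) were higher too, but their calls were lost without single libraries. These were EKLF+/+ replicate 1 (Pgk1 0.92, Gpi1 0.84, Hk3 0.67, Pfkp 0.67), EKLF+/+ replicate 3 (Pgk1 1.04, Gpi1 0.74, Hk3 0.61, Pfkp 0.62), EKLF-/- replicate 3 (Gpi1 0.89, Pfkp 0.66) and EKLF+/+ replicate 2 (Pfkp 0.64). Of 8 other hexose transporters, 4 were tested and none called (median -0.22).

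Lactate and pyruvate leave the pathway through transporters, 8 of which were listed and 7 tested in EKLF-/- against EKLF+/+: 1 fell and 2 rose (median log2 fold change 0.24). Slc16a1, a lactate transporter, fell as Pklr did, from 4104, 3824 and 4811 normalized counts in EKLF+/+ to 2703, 2313 and 2422 in EKLF-/- (log2 fold change -0.78, adjusted p = 0.00467). Mpc2 (0.81, adjusted p = 0.0128; 0.82 without EKLF+/+ replicate 1 and 0.71 without EKLF+/+ replicate 2, not called) and Mpc1 (0.76, adjusted p = 0.0104; 0.68 without EKLF+/+ replicate 2, not called), of the mitochondrial pyruvate carrier, rose. Of 7 pentose phosphate pathway genes, 4 rose and none fell (median 0.48): Taldo1 (0.84, adjusted p = 0.0089), Tkt (0.66, 0.00634), Pgd (0.77, 0.0096; 0.69 without EKLF+/+ replicate 3, not called) and Rpia (0.48, 0.0186; 0.50, 0.42 and 0.47 without EKLF+/+ replicates 1, 2 and 3 and 0.53 without EKLF-/- replicate 3, not called). Of 11 regulators of phosphofructokinase and pyruvate dehydrogenase, 10 were tested and 2 rose (median 0.13), Pdk2 (0.98, adjusted p = 0.00638) and Pfkfb4 (0.72, 0.00734). Of 7 transcription regulators of glycolysis, Txnip rose (0.85, adjusted p = 0.0011) and Epas1 fell (-0.75, 0.0466), with a median of -0.13; Epas1 was not called without EKLF+/+ replicate 1 (-0.73), 2 (-0.86) or 3 (-0.71) or EKLF-/- replicate 2 (-0.61) or 3 (-0.77). Of 9 genes of the vesicle traffic of the Slc2a4 protein, Aspscr1 rose (0.53, adjusted p = 0.047) and 8 were not called (median 0.14); Aspscr1 was not called without EKLF+/+ replicate 1 (0.52), 2 (0.52) or 3 (0.51) or EKLF-/- replicate 2 (0.35) or 3 (0.54).

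With GFP the same enzyme list leaned the other way: of the 17 tested, 8 fell and 3 rose (median log2 fold change -0.43). Hk3, a hexokinase of myeloid cells, fell like Hk2, from 899, 849 and 908 normalized counts in EKLF/GFP- to 83.1, 131 and 240.3 in EKLF/GFP+ (-2.55, adjusted p = 0.00041). Ldhb fell from 241.5, 198 and 183 to 39.7, 45.3 and 32.1 (-2.41, adjusted p = 5.19e-05; -1.69 and -1.53 on the authors' normalized counts with limma), and Pfkp from 2111, 2123 and 2272 to 867, 711.5 and 699 (-1.51, adjusted p = 2.56e-05). Pfkm rose, from 1168, 1331 and 1056 to 2541, 2683 and 2600 (1.14, adjusted p = 5.9e-05), but limma on the authors' normalized counts gave 0.49 and did not call it (adjusted p = 0.609 and 0.576 with pseudocounts of 1 and 8). Minpp1 rose with Bpgm, from 1875, 2336 and 1720 to 3974, 3434 and 3524 (0.88, adjusted p = 0.000668), as it did in EKLF-/-. Gpi1 (-0.94, adjusted p = 6.06e-05) and Aldoa (-0.49, 0.00134) fell with Pkm, and Pgk1 was not called (-0.40, 0.342).

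Of 8 other hexose transporters, 4 were tested with GFP, 2 fell and 1 rose (median log2 fold change -0.64), Slc2a9 among those that fell (-1.25, adjusted p = 0.00116). Of 7 lactate and pyruvate transport genes tested, 2 fell and 3 rose (median 0.28). Slc16a1 rose from 3192, 3678 and 3043 normalized counts in EKLF/GFP- to 5231, 5089 and 5145 in EKLF/GFP+ (0.64, adjusted p = 0.000484), so it moved with Slc2a1 and Pklr in both comparisons, and its partner Bsg rose too (0.64, adjusted p = 0.000145). Emb, the other known partner of such transporters, fell from 10870, 9233 and 11140 to 734, 966 and 1104 (-3.48, adjusted p = 8.16e-06), and Slc16a7 fell as well (-1.28, 0.00279). Pentose phosphate pathway genes fell for 4 of 7 and rose for 2 (median -0.35): Pgd fell (-1.01, adjusted p = 6.1e-05), as did G6pdx (-0.56, 0.00188), Tkt (-0.35, 0.00574) and Pgls (-0.56, 0.025), while Taldo1 (0.33, 0.0126) and Rpia (0.25, 0.023) rose. Pgls was not called without EKLF/GFP- replicate 1 (-0.45) or 2 (-0.56) or EKLF/GFP+ replicate 2 (-0.46) or 3 (-0.49), Taldo1 without EKLF/GFP- replicate 1 (0.29), and Rpia without EKLF/GFP- replicate 1 or 3 (both 0.22), with the replicate number as a block (0.25) or with an offset for transcript length (0.26). On the authors' normalized counts with limma, Pgls (-0.53), Taldo1 (0.37) and Rpia (0.30 and 0.29) were not called with either pseudocount, and Tkt (-0.46) not with a pseudocount of 1.

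Of the regulators of phosphofructokinase and pyruvate dehydrogenase, 5 fell and 3 rose with GFP among 10 tested (median log2 fold change -0.16). Pfkfb3 (-1.87, adjusted p = 2.08e-05) and Pfkfb4 (-1.71, 0.000217) fell and Pfkfb2 rose (1.09, 0.00049), while limma on the authors' normalized counts gave -1.22 and -0.39 for Pfkfb4 with pseudocounts of 1 and 8 and did not call it. Pdk2 rose (0.88, adjusted p = 0.0123), by 1.47 with an offset for transcript length and on the authors' normalized counts with a pseudocount of 1, and by 0.77 without EKLF/GFP- replicate 1, where it was not called. Transcription regulators fell for 5 of 7 (median -0.78): Epas1 (-1.37, adjusted p = 0.00114; -2.72 with the length offset), Arrdc4 (-1.30, 0.000243), Mlxip (-1.02, 0.000104), Hif1a (-0.78, 0.000237) and Txnip (-0.65, 0.000278; -0.76 on the authors' normalized counts with a pseudocount of 1, not called). Vesicle traffic genes fell for 4 of 9 and rose for 2 (median -0.20), with Sort1 (-2.19, adjusted p = 8.23e-06) and Tbc1d4 (-0.71, 0.0017) among those that fell and Irs2 (1.61, 2.72e-05) among those that rose, so they had no common direction with Slc2a4.

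The remaining cell type markers give the makeup of the sorted populations in which the 10 genes were read. In EKLF-/- against EKLF+/+, 3 of 5 early progenitor markers fell (median log2 fold change -0.93), 4 of 7 endothelial (-0.77) and 4 of 5 mesenchymal (-1.46) markers fell, 1 of 7 megakaryocyte markers fell (0.00), 1 of 6 monocyte (0.53), 1 of 4 tested lymphoid (0.13) and 1 of 5 tested mast cell or basophil (0.11) markers rose, and none of 7 hepatoblast markers was called (0.26). With GFP, 5 of 5 early progenitor (-2.19), 5 of 7 endothelial (-1.73), 4 of 4 tested lymphoid (-2.91, with Cd3e at 0), 2 of 5 mesenchymal (-0.42) and 1 of 6 mast cell or basophil (0.00) markers fell. Of 7 megakaryocyte markers, 6 rose and 1 fell (1.13), with sums of 3241, 3317 and 3675 in EKLF/GFP- and 4898, 7098 and 6785 in EKLF/GFP+, and none of 7 hepatoblast markers was called (0.02).

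Transcript estimates of the GFP set bear on isoforms of 1 gene. Pklr-201 starts at the upstream first exon of the red cell (R) type and Pklr-202 at the downstream first exon of the liver (L) type. Pklr-201 had 26.0, 31.5 and 20.2 TPM in EKLF/GFP- and 68.7, 65.3 and 72.5 in EKLF/GFP+, and Pklr-202 had 0.80, 0.614 and 0.466 against 2.20, 1.03 and 0.709. Of this full-length pair, Pklr-201 made up 97.6 ± 0.547% in EKLF/GFP- and 98.1 ± 1.10% in EKLF/GFP+. The pair does not settle which start was used more, since Pklr-203, a fragment of 349 bases, starts beside Pklr-202 and took 51.8% of Pklr TPM in EKLF/GFP- and 49.9% in EKLF/GFP+, and Pklr-205, a fragment of 345 bases, starts beside Pklr-201 and took 34.4% and 35.0%. The first exons differ in what they code: that of the L type (chr3:89136631-89136637, plus strand, GRCm38) adds 7 coding bases and that of the R type 100, printed here in the orientation of the gene.
Pklr R type, Pklr-201, chr3:89136183-89136282, plus strand: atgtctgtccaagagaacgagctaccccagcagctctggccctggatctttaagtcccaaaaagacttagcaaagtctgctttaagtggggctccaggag

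Hk1-205 and Hk1-202 also differ in their first coding exon, that of Hk1-205 lying upstream. Hk1-205 had 41.6, 47.1 and 39.0 TPM in EKLF/GFP- and 79.9, 66.4 and 78.2 in EKLF/GFP+, without overlap, while Hk1-202 had 3.68, 4.0 and 4.20 against 4.04, 3.76 and 4.70, with overlap. Hk1-201, which starts further upstream, was at most 2.15 TPM and also higher in every GFP+ library. Of all Hk1 TPM, Hk1-205 held 69.9% in EKLF/GFP- and 75.2% in EKLF/GFP+, with overlap. Its share of the pair was 91.9, 92.2 and 90.3% in EKLF/GFP- and 95.2, 94.6 and 94.3% in EKLF/GFP+, a pair chosen after the values were seen and given as a description. A red cell hexokinase with a first exon of its own is known in mammals; whether Hk1-205 codes for it was not tested. The coding parts of the first exons are shown in the orientation of the gene on GRCm38.
Hk1-205, chr10:62342501-62342560, minus strand: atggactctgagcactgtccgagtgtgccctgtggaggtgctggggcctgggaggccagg
Hk1-202, chr10:62340013-62340075, minus strand: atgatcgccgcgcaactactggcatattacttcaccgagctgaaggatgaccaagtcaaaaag

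For Pkm, Pkm-202 holds the exon of the M1 form and Pkm-201 that of the M2 form. Pkm-202 had 83.9, 80.6 and 88.1 TPM in EKLF/GFP- and 38.7, 32.7 and 44.4 in EKLF/GFP+, and Pkm-201 had 46.1, 45.1 and 44.0 against 20.5, 17.7 and 19.8. Both were lower in every GFP+ library, and the M1 share of the pair was 65.1 ± 1.39% in EKLF/GFP- and 66.5 ± 2.37% in EKLF/GFP+, with overlap. The pair does not settle whether the form changed, since Pkm-211, which ends before these exons, took 62.4% and 64.5% of Pkm TPM. An excess of M1 would be unusual, since blood cells are known for M2, and because the transcripts also differ at their ends the share may not be that of the exons. The exons have 167 bases each, of which 103 are alike (61.7%) and 64 differ; capitals mark the bases that differ, which are what a read must cover to tell the forms apart.
Pkm M1 exon, chr9:59675029-59675195, plus strand, GRCm38: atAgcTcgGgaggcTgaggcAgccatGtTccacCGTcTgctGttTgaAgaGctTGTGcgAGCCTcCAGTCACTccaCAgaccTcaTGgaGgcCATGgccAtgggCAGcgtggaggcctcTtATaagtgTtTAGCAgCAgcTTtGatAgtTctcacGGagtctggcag
Pkm M2 exon, chr9:59675568-59675734, plus strand, GRCm38: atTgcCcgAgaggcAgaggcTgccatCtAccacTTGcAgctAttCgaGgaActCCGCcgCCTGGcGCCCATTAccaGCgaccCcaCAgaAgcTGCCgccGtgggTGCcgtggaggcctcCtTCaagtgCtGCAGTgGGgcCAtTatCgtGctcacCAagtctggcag

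Over the 29 transcripts with a mean share of at least 10% of their gene's TPM, none could be called, since for 3 libraries against 3 the smallest permutation p is 0.1. Only Slc2a4-203 (25.6% of Slc2a4 in EKLF/GFP-, 17.8% in EKLF/GFP+) and Bpgm-201 (18.0% and 20.7% of Bpgm) had groups that did not overlap. Short annotated fragments took much of the TPM, such as Pklr-203, Pklr-205, Bpgm-205 and Pkm-211 (582 bases, 62.4% of Pkm in EKLF/GFP- and 64.5% in EKLF/GFP+, ending before the exons of the M1 and M2 forms), and the transcripts of a pair also differ at their ends. Of the sequence words of 100 bases in the transcripts of each gene, 19.3% of those of Pklr also occur in the overlapping gene Hcn3 and 12.3% of those of Pkm in other genes, while Hk2, Pfkl, Bpgm and Slc2a4 shared none and Slc2a1, Slc2a3, Hk1 and Ldha at most 0.6%.

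Promoters of the 10 genes were searched for 4 motifs on both strands: CCNCNCCC and CACACCC, forms of the sequence that EKLF and its relatives bind (they overlap in CCACACCC), AGATAA, known for binding of GATA factors, and ACGTG, the core of the sequence bound by hypoxia-inducible factors. RefSeq promoters (GRCm38.p6, 250 bases before the start and 50 after) were found for 8 of the 10 genes, 12 promoters in all, and not for Slc2a3 and Slc2a4; none lies at the start of Hk1-205. CCNCNCCC was found in 9 of the 12 and in 49.5% of all 32851 promoters, CACACCC in 4 and in 7.95%, AGATAA in 1 and in 11.2%, and ACGTG in 5 and in 19.6%. Pklr is shown because its forms start at separate promoters: the upstream window holds CACACCC once, on the reverse strand, and AGATAA once, and the downstream window holds none of the 4. Slc2a1 is shown as a gene that moved with Pklr in both comparisons (CCNCNCCC 2 times, CACACCC and ACGTG once each), and Bpgm as one that did not (CCNCNCCC once). Capitals mark matches of CCNCNCCC, CACACCC and AGATAA; a match is a description, and no match says only that these letters are not in the window.
Pklr upstream promoter, chr3:89135892-89136191, plus strand: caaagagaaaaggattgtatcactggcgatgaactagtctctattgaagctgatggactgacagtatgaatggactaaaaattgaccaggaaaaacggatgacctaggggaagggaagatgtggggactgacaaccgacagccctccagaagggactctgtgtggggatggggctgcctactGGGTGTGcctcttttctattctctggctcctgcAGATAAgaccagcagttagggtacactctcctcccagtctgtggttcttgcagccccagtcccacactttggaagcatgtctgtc
Pklr downstream promoter, chr3:89136373-89136672, plus strand: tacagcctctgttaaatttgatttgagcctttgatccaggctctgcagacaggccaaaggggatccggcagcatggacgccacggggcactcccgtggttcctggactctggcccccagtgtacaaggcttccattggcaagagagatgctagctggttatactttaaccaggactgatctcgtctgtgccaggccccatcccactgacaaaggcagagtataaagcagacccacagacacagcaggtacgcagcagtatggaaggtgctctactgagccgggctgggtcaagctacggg
Slc2a1 promoter, chr4:119108495-119108794, plus strand: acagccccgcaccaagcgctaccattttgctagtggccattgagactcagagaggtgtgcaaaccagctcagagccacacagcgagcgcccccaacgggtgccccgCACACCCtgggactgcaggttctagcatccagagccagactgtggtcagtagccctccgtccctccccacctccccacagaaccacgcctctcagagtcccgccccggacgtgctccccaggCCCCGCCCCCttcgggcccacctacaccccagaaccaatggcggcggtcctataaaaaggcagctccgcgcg
Bpgm promoter, chr6:34476106-34476405, plus strand: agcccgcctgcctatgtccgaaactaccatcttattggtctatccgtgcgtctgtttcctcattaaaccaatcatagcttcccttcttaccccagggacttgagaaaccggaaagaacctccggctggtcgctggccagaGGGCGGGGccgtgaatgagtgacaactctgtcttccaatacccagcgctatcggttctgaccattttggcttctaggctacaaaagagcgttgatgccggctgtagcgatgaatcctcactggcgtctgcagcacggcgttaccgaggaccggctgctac

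Single cells show in which cells the isoforms were read. The library held 3096 cells, of which 3093 passed the filters, with a median of 18605 UMIs (unique molecules), and fell into 16 clusters, 11 of which could be named from fixed marker lists. The clustering did not use the 10 genes or other pathway genes. Since this is 1 sample, values are descriptions, and the 95% intervals cover counting error only. The 3 erythroid-like clusters together had 615 cells with a median of 27520 UMIs and the 3 macrophage-like clusters 1066 cells with a median of 17824; levels are in CPM (counts scaled to the total of UMIs), summed over the cells of a class.

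Red cell and macrophage isoforms parted along these classes. Pklr stood at 54.2 CPM (51.0 to 57.5) in erythroid-like cells and 0.878 (0.528 to 1.37) in macrophage-like cells, and Pkm at 124 (119 to 129) against 558 (548 to 568). At least 1 UMI of Pklr was found in 56.3% of erythroid-like and 1.69% of macrophage-like cells, and Pkm was found in 80.2% and 99.2%. Thinned to 5000 UMIs per cell, these shares were 19.9% and 0.377% for Pklr and 38.2% and 91.4% for Pkm. Pklr made up 30.4% (28.9 to 31.9) of the Pklr and Pkm UMIs in erythroid-like cells and 0.157% (0.0945 to 0.245) in macrophage-like cells. The macrophage gene C1qa stood at 73.0, 77.0 and 109 CPM in the erythroid-like clusters 5, 7 and 8, against 1952 in the macrophage-like cluster 1. How much of the Pkm in erythroid-like cells, or of the Pklr in macrophage-like cells, is background RNA of other cells was not tested. Hepatoblast-like cells had Pklr at 12.6 CPM (8.14 to 18.6) and 18.5% (12.4 to 26.1) of the pair, with Pkm at 55.3 CPM, and in megakaryocyte-like cells Pklr made up 1.73% (1.04 to 2.69).

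The hexokinases differed between the classes as well. Hk1 stood at 67.9 CPM (64.3 to 71.6) in erythroid-like and 11.3 (9.90 to 12.8) in macrophage-like cells, and Hk2 at 3.96 (3.14 to 4.94) against 40.0 (37.4 to 42.8). Hk1 was found in 63.7% and 18.9% of the cells (24% and 5.18% thinned) and Hk2 in 9.76% and 49.2% (1.14% and 18.5% thinned). Of the UMIs of Hk1, Hk2 and Hk3, Hk1 held 90.0% (88.3 to 91.4) in erythroid-like cells (91.3, 94.3 and 46.0% in clusters 5, 7 and 8), while in macrophage-like cells it held 10.6% (9.38 to 11.9), Hk2 37.6% and Hk3 51.8%. Hk1 was also the hexokinase of megakaryocyte-like cells, at 115 CPM and 88.9% (85.7 to 91.7), and held 69.4% in endothelial-like and 24.9% (21.7 to 28.4) in monocyte-like cells.

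**Figure D3:**
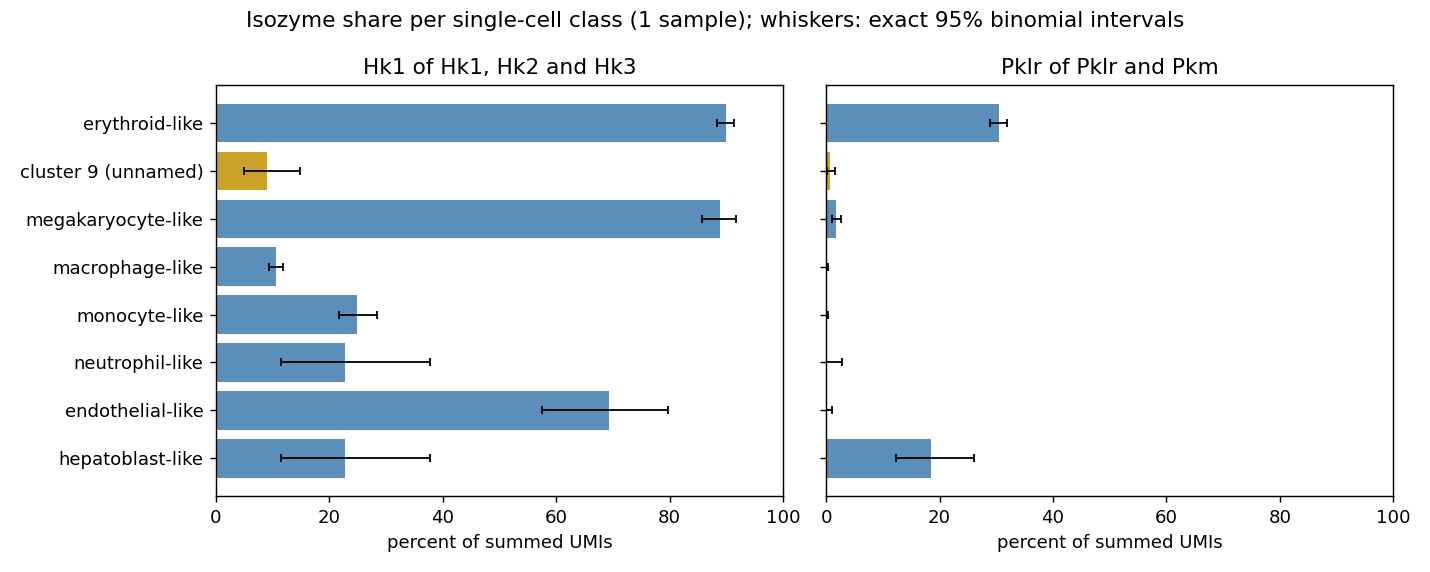
Share of Hk1 among the UMIs of Hk1, Hk2 and Hk3 and of Pklr among those of Pklr and Pkm in the named classes and in cluster 9 of the single-cell library (1 sample); whiskers give exact 95% binomial intervals.

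Slc2a1 stood at 78.1 CPM (74.3 to 82.1) in erythroid-like and 33.4 (31.0 to 35.9) in macrophage-like cells and was found in 62.1% and 36.9% of them (28.5% and 12.3% thinned). Slc2a3 differed little between the 2 classes, at 9.03 CPM (7.76 to 10.4) and 11.5 (10.1 to 13), found in 21.5% and 19.4% (3.75% and 6.03% thinned), and was highest in neutrophil-like cells at 143 CPM (100 to 198) and megakaryocyte-like cells at 57.4. Slc2a4 was rare everywhere, with 34 UMIs in erythroid-like cells (1.71 CPM, 1.18 to 2.38; 5.20% of cells, 0.489% thinned) and 4 in macrophage-like cells (0.185 CPM, 0.0503 to 0.473; 0.375% of cells, 0% thinned). It was read in few cells other than the erythroid-like ones, and no named class outside these 2 had a UMI of it. Slc2a1 held 87.9% of the UMIs of the 3 transporters in erythroid-like cells, 74.2% in macrophage-like, 37.0% in megakaryocyte-like and 12.2% in neutrophil-like cells.

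Pfkl did not part the classes, at 50.8 CPM (47.7 to 54.0) in erythroid-like and 48.3 (45.4 to 51.3) in macrophage-like cells, found in 56.1% and 56.9% (18.6% and 24.2% thinned). Its partner subunits did: Pfkm stood at 25.8 and 2.40 CPM and held 32.1% (29.8 to 34.5) and 3.67% (2.76 to 4.79) of the phosphofructokinase UMIs, while Pfkp stood at 3.81 and 14.6 CPM. Bpgm stood at 99.1 CPM (94.7 to 104) in erythroid-like and 12.2 (10.8 to 13.8) in macrophage-like cells, found in 73.2% and 18.3% (32.6% and 5.27% thinned). Ldha stood at 397 CPM (388 to 406) and 571 (561 to 582), found in 84.2% and 99.0% (57.7% and 89.3% thinned), and was highest in megakaryocyte-like cells at 948. Ldha made up 99.8% of the Ldha and Ldhb UMIs in erythroid-like and 99.4% in macrophage-like cells, 89.0% in hepatoblast-like and 92.6% in endothelial-like cells, and 90.2% in cluster 6, which has no name. Of the 10 genes, Pklr, Slc2a4, Bpgm, Hk1 and Slc2a1 were thus higher in the erythroid-like class, and Hk2, Pkm and Ldha in the macrophage-like class, while the intervals of Slc2a3 and Pfkl overlapped between the 2 classes. These are sums over a class, and single erythroid-like clusters departed from them, among others for Slc2a1, Slc2a4, Hk1, Pfkl and Ldha.

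**Figure D4:**
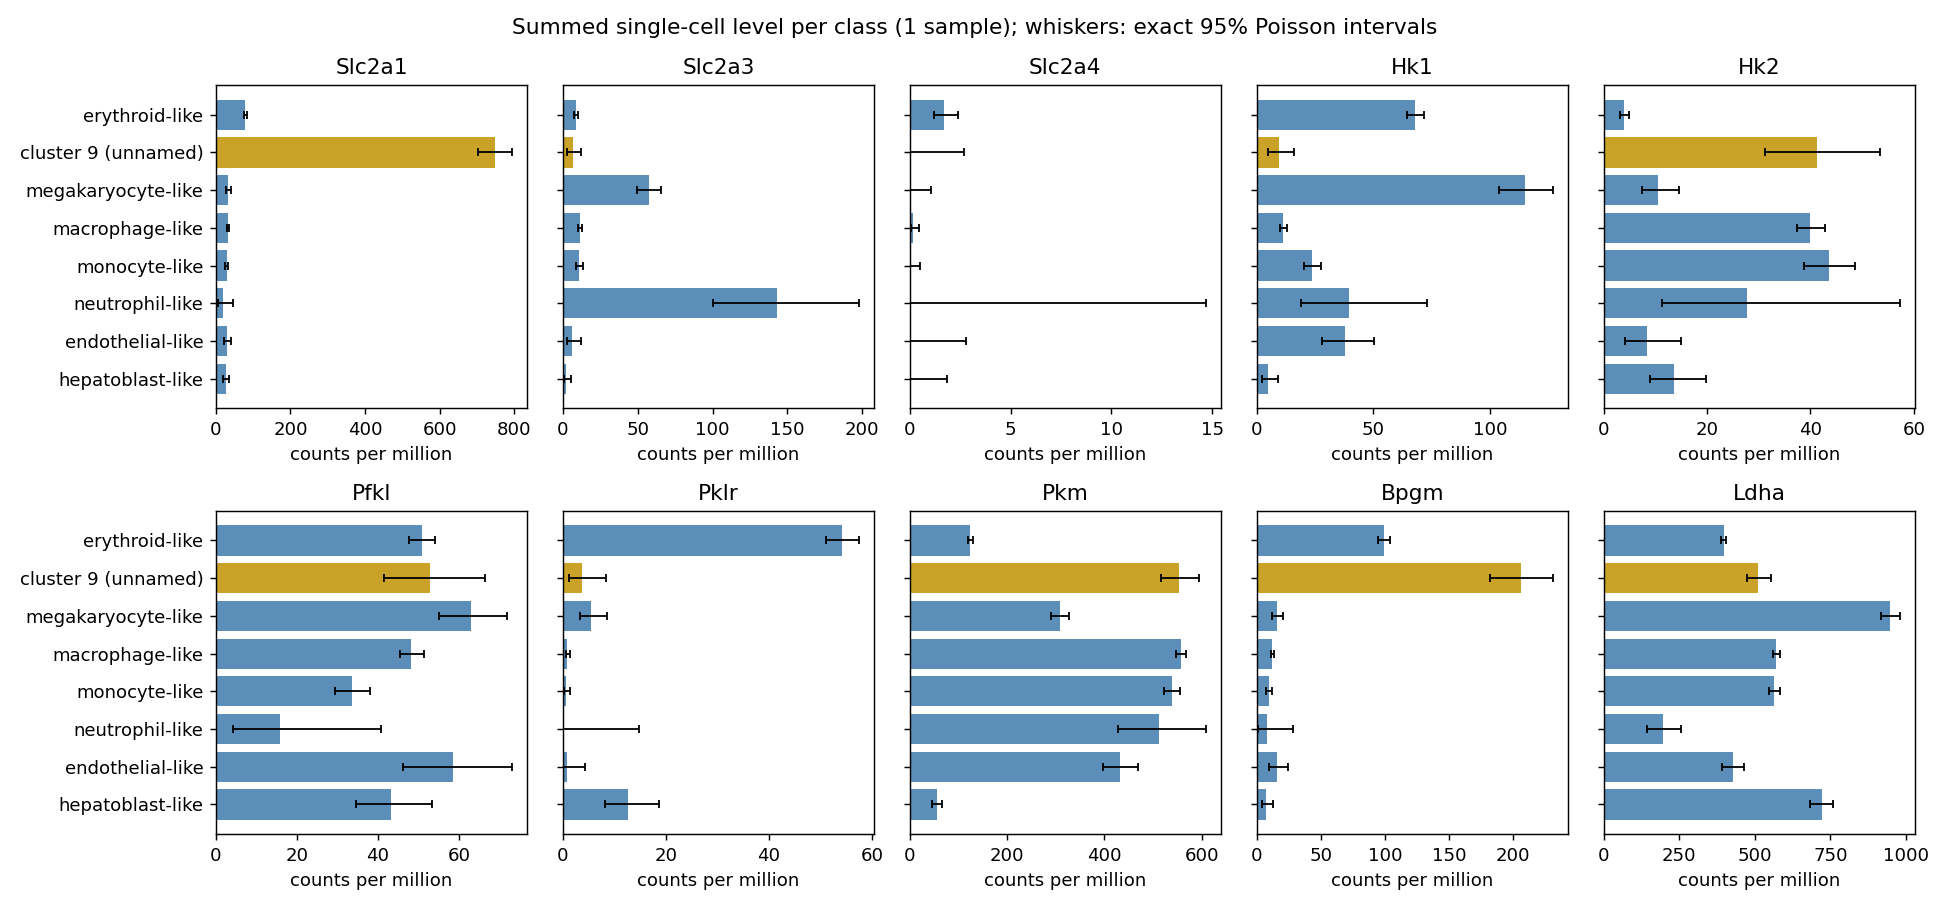
CPM of each of the 10 genes summed over the cells of each named class and of cluster 9 (1 sample); whiskers give exact 95% Poisson intervals.

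The erythroid-like cells were not uniform. Clusters 5, 7 and 8 (238, 198 and 179 cells, median UMIs 47001, 25119 and 17628) had Hbb-bs at 6034, 147239 and 235664 CPM, and Klf1 at 144, 164 and 36.1. The leading genes of cluster 8 also included the globin genes Hba-x, Hbb-y and Hbb-bh0. Whether the 3 clusters are stages of the same cells was not tested. Pklr stood at 67.4, 56.6 and 1.90 CPM in these 3 clusters, Hk1 at 91.2, 52.7 and 9.18, Pfkl at 66.0, 45.2 and 5.06, and Ldha at 599, 154 and 72.1, all lowest in the cluster with most globin. So were Gapdh (1500, 827 and 404) and Eno1 (415, 184 and 86.7), and globin, which takes much of the total there, lowers the CPM of every other gene. Slc2a1 stood at 20.6, 90.1 and 267 CPM and Bpgm at 35.0, 45 and 422, both highest there. The glucose transporter and the bisphosphoglycerate enzyme thus held the opposite order to Pklr, Hk1 and Pfkl. Pkm stood at 158, 76.5 and 79.1 CPM, so Pklr held 29.9% of the Pklr and Pkm UMIs in cluster 5, 42.6% (38.9 to 46.3) in cluster 7 and 2.34% (0.865 to 5.03) in cluster 8. Slc2a4 was nearly confined to cluster 7, at 5.65 CPM (3.81 to 8.06) in 14.1% of its cells, against 0.349 CPM in cluster 5 and 0 UMIs in cluster 8. The class level of Slc2a1 and Bpgm therefore rests on cluster 8 for the most part and that of Pklr and Hk1 on clusters 5 and 7. Slc2a1 in cluster 5 lay below the level of the macrophage-like class, and Hk1 in cluster 8 was no higher than that class. Ldha in cluster 5 lay above the macrophage-like level, and Pfkl in cluster 8 lay below it. Slc2a4 in clusters 5 and 8 was not above the interval of the macrophage-like class. The level of Pklr in cluster 8 rested on 6 UMIs.

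The highest Slc2a1 level of the library lay in neither class. Cluster 9, with 122 cells, a median of 8226 UMIs and no name because it met the markers of macrophages (7 of 10) and of red cells (3 of 13), had Slc2a1 at 748 CPM (703 to 795), found in 95.9% of cells (88.7% thinned). Per cell, the median was 667 CPM and the quartiles 398 and 1258, so the level was not that of a few cells. Slc2a1 was among the leading genes of this cluster, although the clustering did not use it. Bpgm was high there too, at 206 CPM (182 to 231) in 84.4% of cells. The other isoforms in cluster 9 were those of macrophage-like cells: Pkm at 554 CPM, Pklr at 3.62, Hk2 at 41.3, Hk3 at 53.6 and Hk1 at 9.41, which held 9.03% (4.89 to 14.9) of the hexokinase UMIs. C1qa stood at 1323 CPM, Vcam1 at 655 and Adgre1 at 512, beside Slc4a1 at 551, Klf1 at 11.6, Hba-a1 at 10653 and Hbb-bs at 13011. In the macrophage-like cluster 1 these markers stood at 1952, 1026 and 693 CPM for C1qa, Vcam1 and Adgre1 and at 23.1 for Slc4a1, 2.64 for Klf1 and 2307 for Hbb-bs, with Slc2a1 at 37.3 and Bpgm at 10.4. Whether each barcode held 1 cell was not tested beyond a doublet score, which called no doublet in the library.

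Genes with the pattern most like each of the 10 over the 16 clusters of this library were, by Pearson correlation of log2 CPM among 6130 genes and as a description, Ube2o (0.97), Slfn14 (0.95) and Tmcc2 (0.93) for Slc2a1, R3hdm4 (0.90), Ripor2 (0.87) and Dgkd (0.85) for Slc2a3, and none is given for Slc2a4, which was read in too few clusters. They were Acyp1 (0.89), Lyl1 (0.85) and Prkar2b (0.85) for Hk1, Rnf130 (0.95), Rilpl2 (0.94) and Gusb (0.94) for Hk2, and Psmd1 (0.97), Eif2s2 (0.96) and Rnf187 (0.96) for Pfkl. Bpgm was most like Sowaha (0.95), Arl4a (0.90) and Cdr2 (0.89), and Pklr most like Tmem56 (0.91), Smim1 (0.90) and Slc30a10 (0.90). Pkm had Arpc4 (0.96), Ostf1 (0.95) and Dazap2 (0.95), and Ldha C1d (0.96), Tufm (0.96) and Mrps18b (0.96). The clusters share 1 library, and no gene was nearest to more than 1 of these genes.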

How the data were processed

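The RNA libraries and their groups were taken from the labels. The authors made counts of reads per gene for the EKLF+/+ and EKLF-/- libraries with STAR on mm10 and htseq-count, and, with Salmon on the Ensembl GRCm38 transcriptome, deposited estimated counts and TPM per transcript for the EKLF/GFP+ and EKLF/GFP- libraries, from 100 nt single reads of stranded poly-A RNA. The authors also deposited a signal of normalized counts per gene for the GFP set (15957 genes, tximport and DESeq2), used here only in alternatives, and estimated counts per cell and gene from Alevin for the single-cell library (10x 3′ v3 kit, GENCODE vM24). No tool versions were stated. A log2 table of the EKLF-/- set and 5 further columns in the count file of EKLF+/+ replicate 1 were not used here.

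Older gene symbols in the 23337 gene counts were translated (1896, Pkm among them), and reads on no gene (71.05, 72.69 and 72.3% of the EKLF+/+ and 67.22, 68.93 and 68.48% of the EKLF-/- libraries) were left out. Of 116546 transcripts, 115977 were joined to 35498 genes (99.89 to 99.9% of the estimated counts) and summed. A gene was tested where 3 or more of the 6 libraries of a comparison held 10 or more counts, by the quasi-likelihood test of edgeR 4.0.16 on TMM-normalized counts (R 4.3.3), and p-values were adjusted by Benjamini-Hochberg across every gene tested, with 0.05 as the threshold. Standard errors are the absolute log2 fold change divided by the square root of edgeR's F. RPKM used the length of the gene's merged exons, and ratios were formed from normalized counts with a pseudocount of 0.5 and tested by exact permutation. DESeq2 1.42.0 and limma 3.58.1 served for alternatives. The scripts were tested on simulated counts.

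Single cells with at least 200 detected genes and genes in at least 3 cells were clustered with Seurat 5.3.0 (30 components, resolution 0.8, 3977 variable genes after leaving out 23 pathway genes). A cluster was named where at least 3 markers of 1 list reached 50 CPM and 2.0 times the level of the other cells. Scrublet (scanpy 1.11.5) called 0 doublets, and 0 barcodes occurred more than once. Shares of cells were also taken after thinning to 5000 UMIs, leaving out 56 cells. Of the nonzero values 95.7% are whole, the rest being split by Alevin between genes. Python 3.11.15 with numpy 2.4.6, scipy 1.17.1 and pandas 2.3.3 was used for the rest.

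The 10 genes, the pathway lists and the marker lists of the cell types were chosen with earlier results of these data known. Named are the 10 genes, Klf1, every gene of the other lists called in both comparisons, and in each comparison up to 3 called genes per list with the largest change and a mean of at least 100 normalized counts. The transcript pairs are the 2 protein-coding transcripts of at least 1000 bases with the highest mean TPM in Pklr, Hk1 and Pkm, a rule set after their values were seen. The alternatives tried were other tools and normalizations, other count filters, a replicate block, a length offset, other cell filters and resolutions, and leaving out each library.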

Additional observations from a re-analysis of the deposited data

How the results depend on the processing

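Most values kept their direction and their side of the threshold, and the cause was not tested where they did not. In EKLF-/- against EKLF+/+, 58 of 59 fold changes of the 10 genes under other settings were the same and 1 was weaker, and of 57 with a library left out 42 were the same, 13 weaker and 2 reversed. Both counts include Slc2a4 where it had a value. It passed the filter through EKLF+/+ alone, so its values there add nothing. With GFP, 88 of 90 under other settings were the same and 2 weaker, and all 60 with a library left out were the same. Fold changes of the 35 other named genes were the same in 198 of 210 and 300 of 315 other settings (5 and 1 reversed, 3 and 14 weaker, 4 and 0 stronger) and in 166 of 210 and 199 of 210 with a library left out (11 and 2 reversed, 29 and 8 weaker, 4 and 1 stronger). Isozyme ratios kept their direction in 8 of 8 other settings of each comparison, though Slc2a4 to Slc2a1 without EKLF went from -6.08 to -4.78 with a pseudocount of 5.0, and with a library left out in 47 of 48 (1 reversed) and in 48 of 48. Transcript shares were the same in 33 of 44 other settings and 145 of 174 with a library left out, the rest reversed. With 3 libraries a group, a lost call shows little of the size of an effect. Leaving out EKLF+/+ libraries leaves too few counts of Slc2a4 for the filter, as does asking for 10 counts in every library, so it has no value there.

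Genes called lower without EKLF ranged from 575 to 1889 and genes called higher from 346 to 1730 with a library left out. Ranges of the log2 fold change were -0.03 to 0.12 for Slc2a3, -0.54 to -0.48 for Hk1, 0.41 to 0.59 for Pfkl, 0.71 to 1.13 for Pkm, 0.65 to 0.95 for Ldha, -0.02 to 0.25 for Ldhb, -0.24 to 0.06 for Slc2a9, -0.12 to 0.09 for Bsg, -0.51 to 0.01 for Pfkfb2, -0.07 to 0.08 for Pfkfb3 and -0.12 to 0.42 for Irs2, and -0.06 to 0.08 for Aspscr1 with GFP. The log2 ratio of Bpgm to Pgk1 differed by -0.10 to 0.30 without EKLF. Differences of transcript shares with GFP, in percentage points, ranged from -2.26 to 1.18 for Slc2a1-201, -5.78 to 2.85 for Slc2a1-204, -2.54 to 2.63 for Slc2a3-202, -9.54 to 0.332 for Slc2a4-207, -6.83 to 11.9 for Slc2a4-201, -9.80 to 5.71 for Slc2a4-202, -1.49 to 1.88 for Hk2-201, -3.15 to 1.42 for Hk2-204, -5.78 to 2.68 for Pfkl-201, -3.73 to 8.45 for Pklr-205, -8.52 to 1.99 for Pklr-203, -1.97 to 0.889 for Pkm-202 and -0.756 to 6.74 for Ldha-202.

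The replicate numbers do not pair the libraries: libraries of the same number had correlations of their deviations of -0.01, 0 and 0.06 in the EKLF-/- set and of 0.03, -0.09 and 0.03 in the GFP set. Between libraries of different numbers they ranged from -0.04 to 0.02 in the EKLF-/- set and from -0.16 to 0.17 in the GFP set. A pairing under other numbers was not tested. With the number as a block, 1037 genes were called lower and 864 higher without EKLF and 3425 and 2360 with GFP. Without EKLF, Pfkl under the block had a log2 fold change of 0.48 and an adjusted p of 0.053, and Bsg one of 0.00.

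With DESeq2's size factors, Bsg and Pfkfb3 without EKLF had log2 fold changes of 0.00 and 0.00, and with at least 10 counts in every library -0.01 and 0.00, while Aspscr1 with GFP had -0.02. On the authors' normalized counts, limma called 1515 genes higher with GFP with a pseudocount of 1 and 1682 with a pseudocount of 8, and gave Pfkl 0.37 (adjusted p = 0.164) and 0.36 (0.142). Taken from estimated counts, the share differences, in percentage points, were 0.114 for Slc2a1-201, 0.0112 for Slc2a1-204, 1.45 for Slc2a3-203, 1.01 for Slc2a3-202, 0.102 for Hk2-201, -0.846 for Pklr-205 and 0.121 for Pkm-202, and among transcripts of at least 1000 bases, a set chosen after seeing the data, 0.223 for Slc2a1-204, 1.08 for Slc2a3-203, 0.12 for Hk2-201 and 1.19 for Pkm-202.

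In single cells, 114 of 120 levels in the erythroid-like and macrophage-like classes stayed within their counting error, and other classes were not recomputed. With at least 1000 genes per cell, erythroid-like cells had Bpgm at 90.3 CPM and Ldha at 408. Without the 5% of cells with the highest Scrublet score, an alternative added after seeing the data since the planned one without called doublets could not be run with 0 called, they had Hk2 at 2.87 CPM, Ldha at 384 and Pkm at 110.0. At a resolution of 0.4, macrophage-like cells had Pkm at 569 CPM. Depth limits the shares of cells: thinned, the erythroid-like shares were 28.5% for Slc2a1, 3.75% for Slc2a3, 0.489% for Slc2a4, 24% for Hk1, 1.14% for Hk2, 18.6% for Pfkl, 19.9% for Pklr, 38.2% for Pkm, 32.6% for Bpgm and 57.7% for Ldha, and the macrophage-like shares 12.3% for Slc2a1, 6.03% for Slc2a3, 0% for Slc2a4, 5.18% for Hk1, 18.5% for Hk2, 24.2% for Pfkl, 0.377% for Pklr, 91.4% for Pkm, 5.27% for Bpgm and 89.3% for Ldha.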
